A study of Bos taurus with 13 samples.

Results

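The chemokine receptor genes CXCR4, CXCR3, CXCR5, CXCR6, CCR2, CCR6 and CCR9 were described in the blood of dairy cows. They were taken by gene name and are 7 of the 16095 named genes in the count tables. RNA from whole blood of 13 lactating cows of the Italian Red Pied breed was sequenced, 7 from the high tail of milk cortisol (replicates 1 to 7) and 6 from the low tail (replicates 8 to 13). All cows came from 1 herd and were picked for the cortisol concentration of their milk, and the labels name no treatment or engineered allele. Ages and genotypes of single cows were not analysed here. Blood had been taken from the tail vein into tubes that fix RNA, and globin transcripts had not been depleted.

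Chemokine receptors are G protein-coupled receptors in the membrane of leukocytes, and they steer the cells along gradients of small secreted proteins, the chemokines. Each receptor answers to one or a few ligands and is carried by its own set of blood cells, so that the set of receptors on a cell decides which tissue it enters. CXCR4 binds CXCL12 and holds leukocytes in bone marrow, and CXCR5 draws B cells and follicular helper T cells into lymphoid follicles. CXCR3 and CXCR6 are found on effector and memory T cells and natural killer (NK) cells, CCR2 on classical monocytes, CCR6 on B cells and some T cell subsets, and CCR9 on lymphocytes that home to the small intestine. Glucocorticoids such as cortisol are known to move leukocytes between blood and other compartments.

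The total of counts on named genes was 12198355 to 23709740 per cow in the high group and 11045599 to 28124575 in the low group, and levels are given in CPM, counts scaled to a common library total. A value of 3 counts was worth 0.107 to 0.272 CPM. One library lay apart from the others on the first principal component of log2 CPM (29.0% of the variance), with a score of 62.4 for high replicate 4 against 19.1 for the next cow and -31.3 for the lowest. Values without high replicate 4 are given for some fold changes and correlations below, and were not computed for spreads or counts of genes. The erythroid marker score was 0.93 higher in the high group on the log2 scale (exact permutation test, two-sided, p = 0.0128, adjusted over 14 lists 0.179), and none of the other 13 marker scores had an unadjusted p under 0.05. In whole blood, fewer cells of a type and less RNA per cell cannot be told apart, and this holds for every level below. The labels do not say that a cow was sampled more than once, and each cow was taken as 1 replicate.

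The 7 receptors spanned a wide range of expression and all 7 passed the filter on low counts. The lowest count of any receptor in any cow was 102, for CCR6 in low replicate 12, and the highest was 9588, for CXCR4 in low replicate 8. On the UMD3.1 build, CXCR4 lies on chromosome 2 (61582125 to 61585838, plus strand), CXCR3 on chromosome X (84354015 to 84356815, plus strand), CXCR5 on chromosome 15 (30007426 to 30018517, plus strand) and CCR6 on chromosome 9 (103460841 to 103461953, plus strand). The remaining receptors lie on the minus strand of chromosome 22, with CCR2 at 53613211 to 53614323, CXCR6 at 53998567 to 54003908 and CCR9 at 54041058 to 54057181. CXCR6 is separated by 37150 bases from CCR9. CXCR6 lies inside the span of FYCO1, a gene on the opposite strand, with no shared exon bases. The counting command in the file headers sets no strand option, so that reads were counted to a gene whatever their strand. As a description over the 13 cows, CXCR6 and FYCO1 had a Spearman's rho of -0.27 and a Pearson's r of -0.27. That command sets no option for reads that match several places.

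CXCR4, the receptor of CXCL12, was the most abundant of the 7. In the high group its lowest, median and highest levels were 195, 209 and 316 CPM, and in the low group 114, 206 and 367 CPM. The low group held both the lowest cow (low replicate 12) and the highest (low replicate 8), and enclosed the whole range of the high group. The coefficient of variation (SD divided by the mean) was 40.4% in the low group and 18.6% in the high group, where counting error alone gives 1.63% and 1.62%. That difference in spread was noticed in the data and was not tested. In the high group, high replicate 2 stood apart at 316 CPM, and the other 6 cows lay between 195 and 232 CPM.

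CXCR3, the receptor of interferon-induced chemokines on effector T and NK cells, varied less than the median gene. It measured 28.8, 38.9 and 44.3 CPM in the high group (lowest, median and highest) and 27.3, 40.3 and 47.0 CPM in the low group. CXCR6, the receptor of CXCL16 on memory T and NK cells, measured 61.7, 84.1 and 89.1 CPM in the high group and 47.3, 58.4 and 102 CPM in the low group. For both receptors low replicate 12 was the lowest cow of all 13 and low replicate 10 the highest. Without low replicate 10, the low cows reached 75.5 CPM of CXCR6, and 4 of the 7 high cows lay above that.

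CXCR5, the receptor of CXCL13 on B cells, measured 33.5, 42.2 and 54.4 CPM in the high group and 33.5, 39.6 and 56.3 CPM in the low group. The groups covered nearly the same range, and low replicate 12, the lowest cow for CXCR4, CXCR3 and CXCR6, was the highest for CXCR5. CCR6, the receptor of CCL20, was the scarcest of the 7 at 6.94, 8.69 and 12.0 CPM in the high group and 8.56, 9.17 and 9.65 CPM in the low group. All 6 low cows lay within the range of the high cows. The coefficient of variation of CCR6 was 4.00% in the low group, under the 8.06% that counting error alone gives at its depth, and 19.7% in the high group, where counting error gives 7.92%. This difference in spread was also noticed in the data and was not tested.

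CCR2, the receptor of CCL2 that brings monocytes out of bone marrow, measured 21.5, 31.4 and 62.0 CPM in the high group and 25.0, 28.0 and 45.5 CPM in the low group. Its highest value was that of high replicate 4, the library that lay apart, and the next cow was low replicate 9. CCR9, the receptor of CCL25 on gut-homing lymphocytes, measured 21.1, 28.5 and 46.7 CPM in the high group and 20.6, 31.8 and 50.7 CPM in the low group. The groups overlapped over most of this range. Over all 13 cows the coefficient of variation was 14.3% for CCR6, 18.3% for CXCR3, 18.9% for CXCR5, 22.5% for CXCR6, 29.1% for CXCR4, 29.4% for CCR9 and 33.04% for CCR2, against a median of 21.3% over the 11033 genes tested. The 3 least variable receptors thus lay under that median and the other 4 above it. The value for CCR2 includes high replicate 4, and by group it was 39.0% (high) and 25.0% (low). Whether CCR2 stays the most variable without that cow was not tested.

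**Figure D1:**
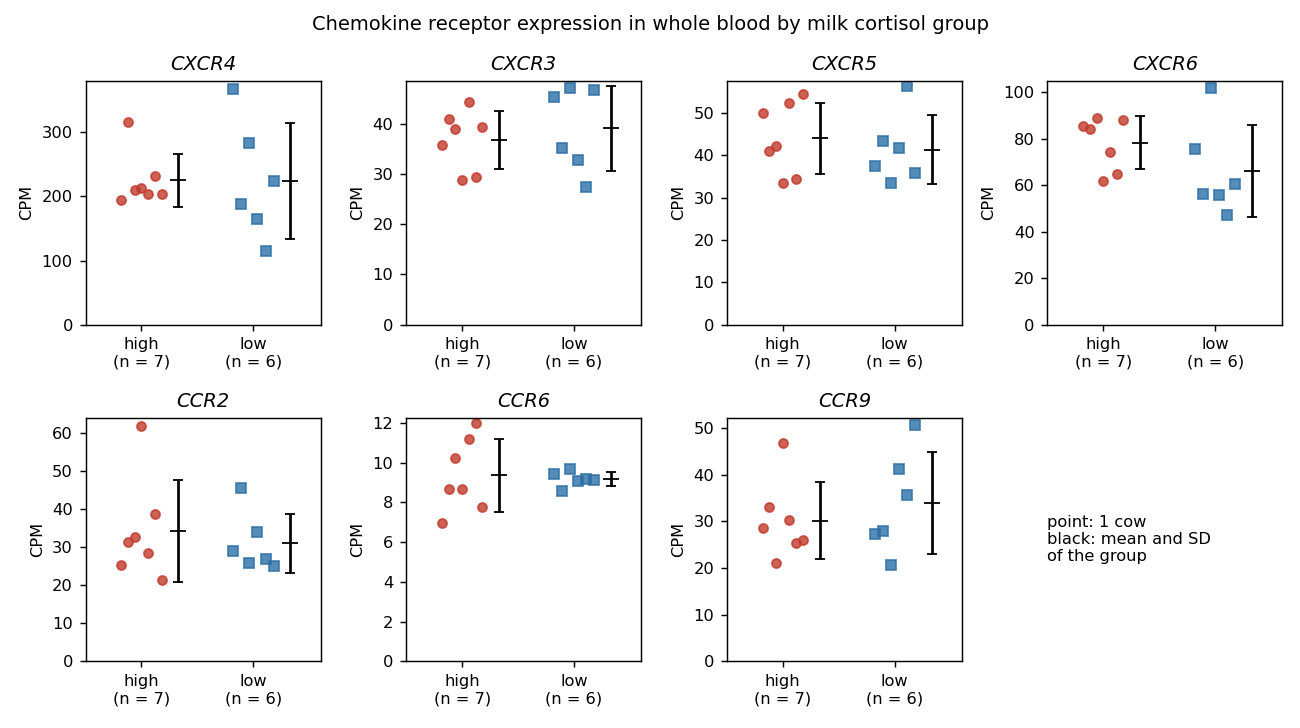
Expression of each receptor in CPM (vertical axis, from 0) for the 7 high and 6 low cortisol cows, with 1 point per cow and the mean and SD of each group in black. The groups overlapped for all 7 receptors, and the 6 low cows lay close together for CCR6 (8.56 to 9.65 CPM) and far apart for CXCR4 (114 to 367 CPM).

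Levels were compared between receptors per kilobase of exon (CPM per kb), because longer transcripts collect more reads. CXCR4 had the highest median of the 7 at 125 CPM per kb, followed by CXCR6 at 38.0, CXCR5 at 37.0, CCR2 at 26.0, CXCR3 at 24.0, CCR9 at 12.1 and CCR6 at 8.21 CPM per kb. The 6 pairs of neighbours in this order were compared within cows by an exact two-sided sign-flip permutation test of log2 differences over 13 cows, whose smallest possible p is 0.000244. These pairs were picked from the 21 possible ones by the medians of the same cows, and the p-values do not allow for that choice. CXCR4 was above CXCR6 in 13 of 13 cows, by 1.83 ± 0.34 on the log2 scale (SD, exact p = 0.000244, adjusted over the 6 pairs 0.00146). CXCR3 was above CCR9 in 12 of 13 cows by 0.81 ± 0.54 (exact p = 0.000732, adjusted 0.0022), and CCR9 above CCR6 in 11 of 13 cows by 0.66 ± 0.49 (exact p = 0.00146, adjusted 0.00293). The order was thus held by the most and the least abundant receptors, and was less firm between them.

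CXCR5 was above CCR2 in 10 of 13 cows by 0.40 ± 0.59 (exact p = 0.0317, adjusted 0.0476). CXCR6 and CXCR5 did not differ beyond their spread, with CXCR6 above in 6 of 13 cows (exact p = 0.733). CCR2 and CXCR3 did not either, with CCR2 above in 8 of 13 cows (exact p = 0.0879, adjusted 0.105). Leaving out 1 cow put CXCR5 above CXCR6 in 7 of 13 cases, and levels not divided by length put CXCR3 above CCR2. Of the 6 pairs 4 differed, and 3 when high replicate 1, 2, 3, 5 or 7 or low replicate 8, 10 or 12 was left out or levels were not divided by length. Exon lengths of the gene models were 1113 bases for CCR2 and CCR6 and 1125 for CXCR5. They were 1626 for CXCR3, 1673 for CXCR4, 1955 for CXCR6 and 2352 for CCR9. The length is a multiple of 3 for 5 of the 7 models (CXCR3, CXCR5, CCR2, CCR6 and CCR9), which by itself does not mark a model of coding bases alone. Whether the shortest models (CCR2, CCR6 and CXCR5) lack untranslated parts, which would change their level per kilobase against the longer ones, was not tested.

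Among the 18 chemokine receptors tested, CXCR4 came second by median level, after CCR7, the lymph node homing receptor of naive T cells (195 CPM per kb). CCR3, the eosinophil receptor, followed at 87.5, and CX3CR1, the receptor of patrolling monocytes and cytotoxic lymphocytes, at 75.4 CPM per kb. CXCR6, CXCR5, CCR2 and CXCR3 took places 5 to 8, CCR9 place 11 and CCR6 place 13. The 7 receptors together measured 317 to 591 CPM per cow, and CXCR4 alone made up 36.1 to 62.1% of that sum. CCR1, CXCR1 and CXCR2 were not analysed here, so the order does not cover the main receptors of neutrophils.

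**Figure D2:**
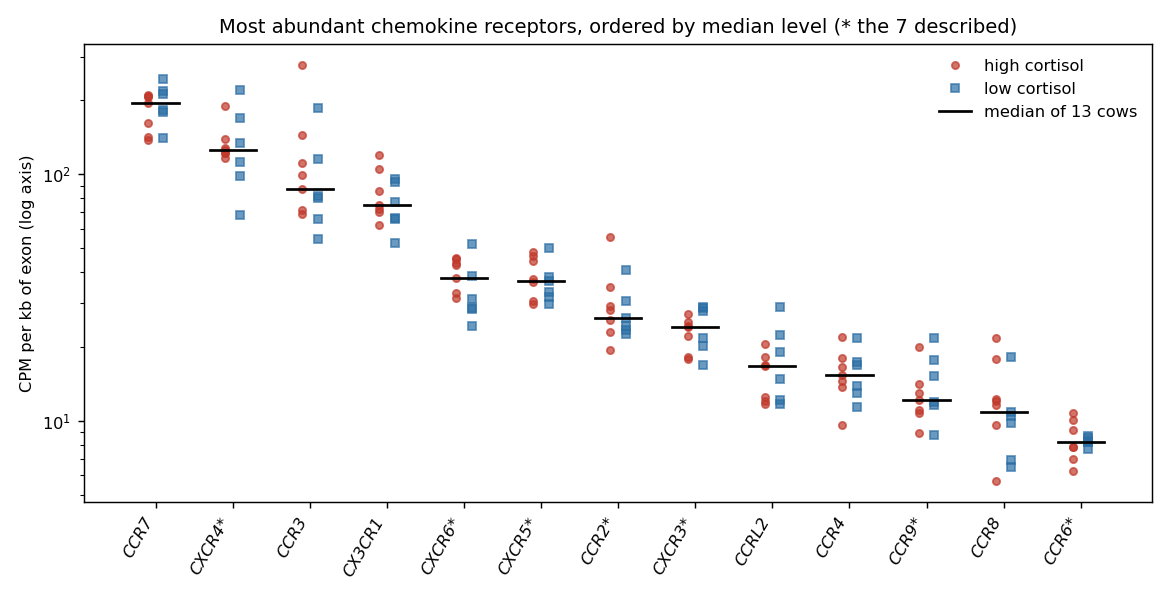
Level of the 13 most abundant of the 18 chemokine receptors tested in CPM per kb of exon (log axis), ordered by the median of 13 cows (black line), with circles for high and squares for low cortisol cows and an asterisk at the 7 receptors described. CXCR4 (median 125) stood above the other 6 described receptors, and CXCR6 and CXCR5 (38.0 and 37.0) overlapped.

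The main comparison asked whether expression in blood differed with milk cortisol. No receptor passed the test between high and low cows, and the groups overlapped for 7 of 7. edgeR's quasi-likelihood test called 0 of 7 at an adjusted p of 0.05 (Benjamini-Hochberg over 11033 genes), where it called 0% of all genes. At an unadjusted p of 0.05 the count was 0 of 7 against 2.09% of all genes, and groups that did not overlap were found for 0.0272% of all genes. DESeq2, limma-voom and an exact permutation test of log2 CPM over the 1716 splits also called 0 of 7, adjusted or not. The smallest possible p of that exact test was 0.000583. Over 11033 genes it could pass the adjusted threshold only if many genes reached that value, so only its unadjusted result is informative.

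The log2 fold changes (high minus low) were positive for 5 receptors and negative for 2, where 53.3% and 46.7% of all genes were positive and negative. Their median was 0.028, and that of all genes tested was 0.012. CXCR6 had the largest difference, with 78.3 ± 11.4 CPM in the high group (SD, n = 7) and 66.2 ± 19.9 CPM in the low group (n = 6). This is a log2 fold change of 0.24 with a standard error of 0.16 and a 95% interval of -0.10 to 0.58 (edgeR adjusted p = 0.998). An exact permutation test of log2 CPM gave p = 0.141. Without low replicate 10 the difference was larger, and the log2 fold change was 0.41 with a standard error of 0.13, past the unadjusted threshold but not the adjusted one (edgeR adjusted p = 1). Without low replicate 12 it was smaller, at 0.16.

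CCR9 was lower in the high group in value, at 30.1 ± 8.26 against 33.9 ± 10.9 CPM (SD, n = 7 and 6), a log2 fold change of -0.17 with a 95% interval of -0.61 to 0.27 (exact permutation p = 0.523). CCR2 measured 34.3 ± 13.4 against 31.1 ± 7.78 CPM, a log2 fold change of 0.14 with an interval of -0.32 to 0.60 (exact permutation p = 0.698). Without high replicate 4 the value for CCR9 was -0.31, and without low replicate 13 it was -0.021. The direction for CCR2 came from high replicate 4, and without that cow the log2 fold change was -0.070. CXCR5 measured 44.0 ± 8.44 against 41.3 ± 8.20 CPM, with a log2 fold change of 0.092 and an interval of -0.22 to 0.40. With 1 cow left out this value lay between 0.033 (without high replicate 7) and 0.20 (without low replicate 12). CXCR3 measured 36.8 ± 5.80 against 39.0 ± 8.40 CPM, with a log2 fold change of -0.088 and an interval of -0.40 to 0.23. Here the values with 1 cow left out lay between -0.17 (without low replicate 12) and -0.024 (without low replicate 10). For these receptors the group means lay within 1 SD of each other.

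CCR6 measured 9.37 ± 1.84 against 9.18 ± 0.37 CPM, with a log2 fold change of 0.028 and an interval of -0.29 to 0.35 (exact permutation p = 0.95). CXCR4 measured 225 ± 41.8 against 224 ± 90.3 CPM, with a log2 fold change of 0.0087 and an interval of -0.44 to 0.46 (exact permutation p = 0.717). The sign for CXCR4 turned when high replicate 2, low replicate 9, low replicate 11 or low replicate 12 was left out, and ranged from -0.13 to 0.21 over all 13 cows left out in turn. The limit farthest from 0 among the 7 intervals was -0.61, for CCR9. With the erythroid share in view, a fit with the log2 haemoglobin share as covariate also called 0 of 7, and turned the sign for CXCR5 (-0.049), CCR6 (-0.047) and CCR9 (0.0094).

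**Figure D3:**
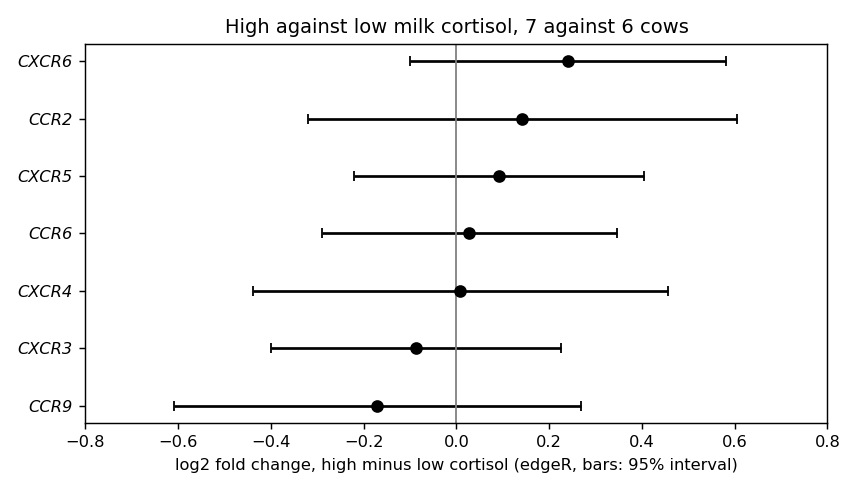
Log2 fold change (high minus low milk cortisol, horizontal axis) of each receptor from edgeR, with points for the estimate and bars for the 95% interval over 7 high and 6 low cows. All 7 intervals crossed 0, with CXCR6 (0.24) at one end and CCR9 (-0.17) at the other.

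The rest of the pathway was read from the same fit. Of 17 other chemokine receptors listed, 11 were tested and 0 passed at an adjusted p of 0.05 or an unadjusted p of 0.05 (edgeR). Of all genes 0% and 2.09% passed these thresholds, so 0 of 11 is near the background. The log2 fold changes of the 11 were positive for 8 and negative for 3 (53.3% and 46.7% of all genes), with a median of 0.11. The most abundant were CCR7 (log2 fold change -0.12), CX3CR1 (0.16), CCR3 (0.34) and CCR4, a receptor of skin-homing T cells (0.00029). Of 38 ligands listed, 25 were found, 13 of which had under 10 counts in every cow, and 7 were tested. CCL5, a ligand made by T and NK cells, had a log2 fold change of 0.0065, and CXCL16, the ligand of CXCR6, of -0.024.

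CCL16 was the only 1 of 7 tested ligands with an unadjusted p under 0.05, where 2.09% of all genes had one. It measured 185 ± 96.4 CPM in the high and 285 ± 106 CPM in the low group (SD, n = 7 and 6). Its log2 fold change was -0.63 with a standard error of 0.28 (edgeR adjusted p = 0.998). Of 42 signalling genes listed downstream of the receptors, 40 were tested and 0 passed, adjusted or not (0% and 2.09% of all genes). Their log2 fold changes were positive for 12 and negative for 28, with a median of -0.064. Of all genes, 53.3% were positive and 46.7% negative, and whether the 40 depart from this was not tested. The most abundant were CORO1A, an actin regulator (-0.091), GNAI2, the inhibitory G protein subunit that chemokine receptors use (-0.13), RAC2, a GTPase of moving leukocytes (-0.079), and ITGB2, the beta chain of leukocyte integrins (-0.077). None of the 11033 genes tested passed the adjusted threshold, so the same outcome for these receptors, ligands and signalling genes does not set them apart.

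Because each receptor marks certain leukocytes, its level was set against 14 lists of marker genes, each summed up per cow as the mean of centred log2 CPM. Over the 98 pairs of a receptor and a list, 0 passed an adjusted p of 0.05 (permutation test of Spearman's rho with 100000 resamples, Benjamini-Hochberg over all genes for each list), where 0.109% of all pairs of a gene and a list did. At an unadjusted p of 0.05, 7 of 98 pairs passed (7.14%), and over all genes 8.75% did. The receptors as a set thus did not follow the markers more often than genes in general. All values of one cow come from the same library, so these correlations also hold whatever the libraries share.

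**Figure D4:**
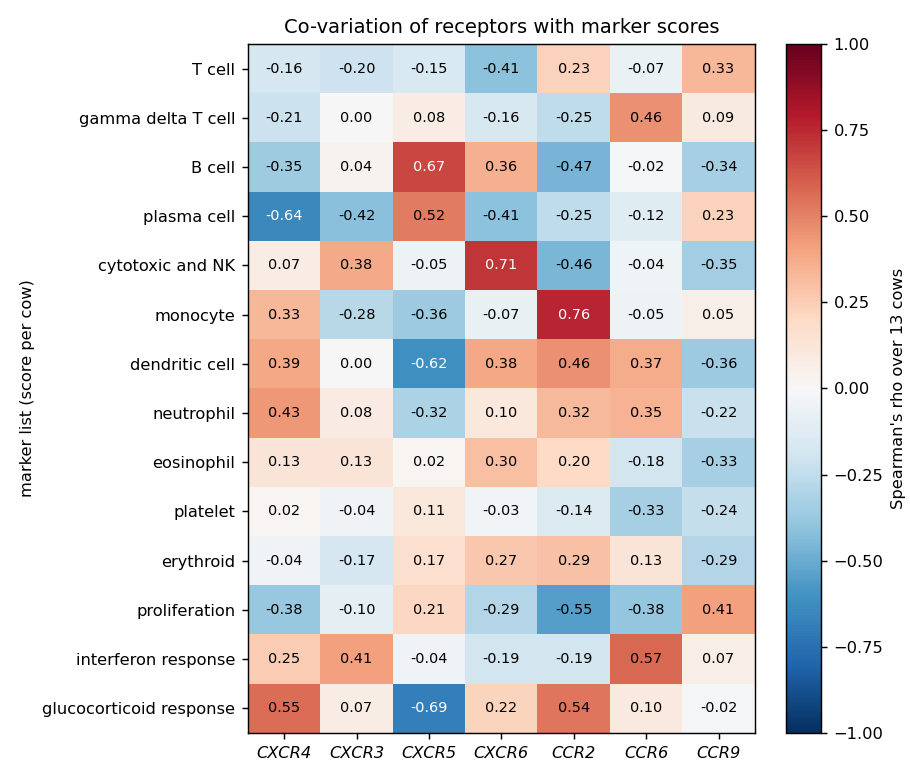
Spearman's rho over 13 cows between each receptor (columns, log2 CPM) and the score of each of 14 marker lists (rows), from blue (-1) to red (1). The 3 highest values were CCR2 with monocyte markers (0.76), CXCR6 with cytotoxic and NK markers (0.71) and CXCR5 with B cell markers (0.67), and none of the 98 passed the adjusted threshold.

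The highest of the 98 values was that of CCR2 with the monocyte score, with rho 0.76 (permutation p = 0.00335, adjusted 0.116) and r 0.67 (permutation p = 0.0154, adjusted 0.273). Without the 2 cows farthest in score (high replicates 2 and 7) r was 0.76 and rho 0.79. Within the groups r was 0.65 (high) and 0.72 (low), and rho 0.75 and 0.83. The monocyte score ran with 8.42% of all genes in the positive direction at an unadjusted p of 0.05, so this relation was common. CCR2 had a positive rho with 6 of the 8 monocyte markers scored, but rho was 0 with CSF1R, the growth factor receptor of monocytes and the most abundant of them (202 to 455 CPM). Leaving out high replicate 4 gave a rho of 0.73.

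CXCR6 had its highest value with the cytotoxic and NK score, with rho 0.71 (permutation p = 0.00737, adjusted 1) and r 0.78 (permutation p = 0.00165, adjusted 1). Fewer genes did so than for the monocyte score, 1.4% of all genes in the positive direction at an unadjusted p of 0.05. Without the 2 farthest cows (high replicate 1 and low replicate 10) r was 0.68 and rho 0.55. Within the groups r was 0.61 (high) and 0.85 (low), and rho 0.61 and 0.49. CXCR6 had a positive rho with 10 of 12 markers of the list, and with CTSW, a protease of cytotoxic cells and the most abundant marker (142 to 250 CPM), rho was 0.64. With the T cell score rho was -0.41 (permutation p = 0.161), and -0.13 without the 2 cows farthest in that score. With CD3E, the most abundant T cell marker, rho was -0.027. The difference between the cytotoxic and T cell values was not tested.

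CXCR5 had its highest value with the B cell score, with rho 0.67 (permutation p = 0.0142, adjusted 0.511) and r 0.76 (permutation p = 0.00307, adjusted 0.295). All 10 B cell markers scored had a positive rho with it, and rho was 0.57 with CD79A, a chain of the B cell receptor complex and the most abundant marker (469 to 1172 CPM). Of all genes, 4.35% ran with the B cell score in the positive direction at an unadjusted p of 0.05. Without the 2 farthest cows (high replicates 5 and 7) r was 0.62 and rho 0.49. Within the groups r was 0.90 (high) and 0.55 (low), and rho 0.96 and 0.20. CCR6, which B cells also carry, had a rho of -0.022 with the same score.

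**Figure D5:**
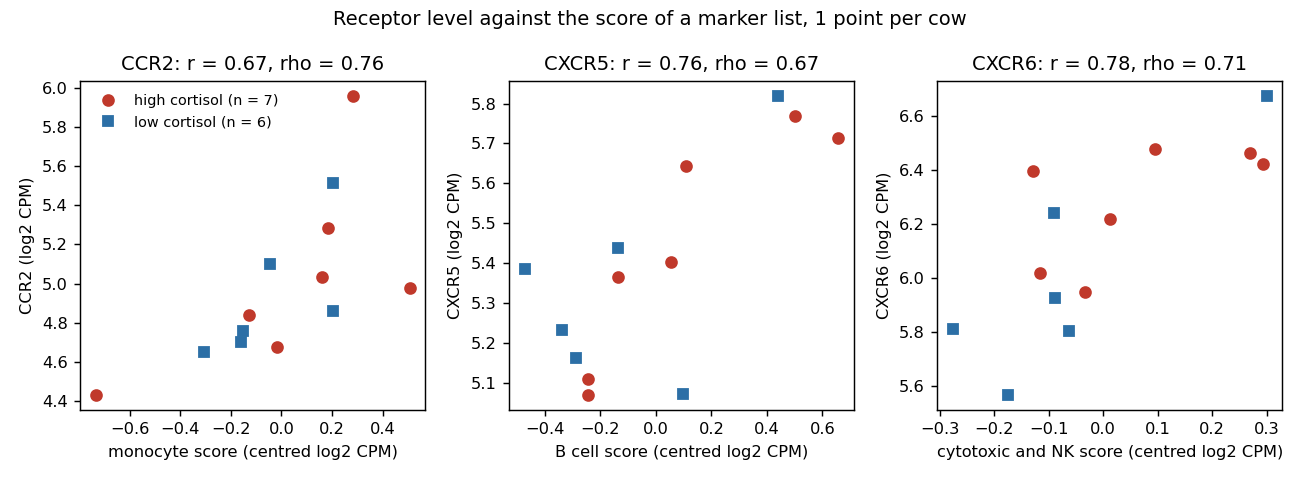
Log2 CPM of CCR2, CXCR5 and CXCR6 (vertical axes) against the scores of monocyte, B cell, and cytotoxic and NK markers (horizontal axes, mean centred log2 CPM), with 1 point per cow, circles for high and squares for low cortisol. The points ran upwards in the 3 panels (r = 0.67, 0.76 and 0.78), with points of both groups along the range.

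The other receptors had values nearer to 0 with the markers of the cells that carry them. CXCR4, which neutrophils and lymphocytes share, had a rho of 0.43 with the neutrophil score, -0.16 with the T cell score and -0.35 with the B cell score. CXCR3 had a rho of 0.38 with the cytotoxic and NK score and -0.20 with the T cell score. The 15 T cell markers went both ways with CXCR3, 8 of them with a positive rho (range -0.74 to 0.68), and CD3E, a chain of the T cell receptor complex and the most abundant of them, had 0.40. CCR9 had a rho of 0.33 with the T cell score, 0.093 with the gamma delta T cell score and -0.36 with the dendritic cell score. The unadjusted permutation p was above 0.05 for each of these, and the gamma delta T cell list was scored on 3 genes only. CCR2 and CCR6 had rho values of 0.23 and -0.066 with the T cell score, and CXCR5 of -0.15.

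Among the scores that follow a cell state, CXCR5 had a negative correlation with the glucocorticoid response score, with rho -0.69 (permutation p = 0.0115, adjusted 0.252) and r -0.59 (permutation p = 0.0372, adjusted 0.302). This list holds genes known to answer to cortisol, such as FKBP5 and TSC22D3, and 12 of its 13 genes had a rho with CXCR5 that was not positive. Genes in general fell with this score in 7.12% of cases at an unadjusted p of 0.05. Without the 2 farthest cows (high replicate 4 and low replicate 12) rho was -0.48 and r -0.35. Within the groups r was -0.70 (high) and -0.59 (low), and rho -0.89 and -0.37. CXCR4 had the opposite sign, with rho 0.55 (permutation p = 0.0521, adjusted 0.37) and r 0.65 (permutation p = 0.0143, adjusted 0.223), and a positive rho with 11 of the 13 genes. The score itself did not differ between high and low milk cortisol cows beyond their spread (difference 0.077, exact permutation p = 0.605). CXCR5 also had a negative rho with all 10 neutrophil, 8 monocyte and 5 dendritic cell markers scored. Its rho was positive with all 10 B cell and 5 plasma cell markers. Whether its relation with the glucocorticoid response score is separate from these was not tested.

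Of the remaining pairs with an unadjusted p under 0.05, CXCR4 had a negative value with the plasma cell score (rho -0.64, permutation p = 0.0202, adjusted 0.455, and r -0.77), as 4.41% of all genes did. CXCR5 had one with the dendritic cell score (rho -0.62, permutation p = 0.0275, adjusted 0.934, and r -0.65), as 1.99% of all genes did. CCR6 had a positive value with the interferon response score (rho 0.57, permutation p = 0.0444, adjusted 0.2, and r 0.41), which 10.2% of all genes did. Without the 2 farthest cows rho was -0.59, -0.41 and 0.52 for these 3 pairs, and r was -0.71, -0.47 and 0.29. The proliferation, platelet, erythroid, eosinophil and gamma delta T cell lists gave rho values from -0.55 to 0.46 with the 7 receptors, none with an unadjusted p under 0.05. These values can rest on few cows. For CCR2 with the erythroid score rho was 0.29, and 0.79 without the 2 farthest cows (high replicates 5 and 7). Within the groups it was -0.25 (high) and 0.89 (low).

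Between the receptors themselves, 21 pairs were compared and none passed the threshold adjusted over all genes. CXCR6 and CCR9 had the most negative value (rho -0.71, permutation p = 0.00812, r -0.66), and r was -0.59 within the high and -0.69 within the low group. CXCR4 and CXCR5 came next (rho -0.70, permutation p = 0.00966, r -0.59). Of all genes, 1.69% had a negative value with CXCR6 and 3.17% with CXCR4 at an unadjusted p of 0.05. Positive values with an unadjusted p under 0.05 were those of CXCR3 with CXCR4 (rho 0.58, permutation p = 0.0396, r 0.65) and with CXCR6 (rho 0.57, permutation p = 0.047, r 0.63), where 13.6% of all genes had one with CXCR3. The adjusted permutation p of rho for these 4 pairs lay between 0.15 and 1 by either gene's own scan. For r the smallest was 0.0876, for CXCR4 in the scan of CXCR3. For CXCR3 and CXCR4, r was 0.91 within the low group and 0.096 within the high group, and without the 2 cows farthest in CXCR4 (low replicates 8 and 12) it was 0.40. Without the same cows CXCR4 and CXCR5 had r -0.41 and rho -0.63. Without the 2 cows farthest in CXCR6 (low replicates 10 and 12), r was 0.38 and rho 0.28 for CXCR3 with CXCR6. For CXCR6 with CCR9 they were then -0.60 and -0.59.

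CCR2 and CXCR3 were the receptors with which other genes ran at the adjusted threshold. At an adjusted p of 0.05, CCR2 rose with 264 genes (2.39%) and fell with 287 (2.6%), and CXCR3 rose with 174 (1.58%) and fell with 232 (2.1%), where the other 5 receptors had 0 in either direction. These counts include high replicate 4, the library that lay apart and the highest for CCR2, and were not redone without it. CCR2 and CXCR3 both followed the first principal component, CCR2 with rho 0.71 (permutation p = 0.00737, adjusted 0.0297, r 0.83) and CXCR3 with rho -0.77 (permutation p = 0.00267, adjusted 0.0148, r -0.70). That component is built from the same genes, and 16.3% of all genes rose and 13.5% fell with it at the same threshold, so 2 of 7 receptors is near the background. Without high replicate 4 and low replicate 13, the farthest cows on it, r was 0.58 for CCR2 and -0.59 for CXCR3. The part of this component in the relation of CCR2 with monocyte markers was not tested.

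The genes most like each receptor were taken by Pearson's r of log2 CPM over the 13 cows, as a description. For CCR2 these were FAM122B (r 0.96), ZFR and HIP1 (both 0.94), and for CXCR3 TMX2 (0.92), DGKQ (0.92) and DVL1 (0.90). CXCR5 was most like CRIP3 (0.91), IL24 (0.88) and FAM129C (0.85), and CXCR4 most like PIK3R4 (0.89), ATP1B1 (0.88) and GADD45G (0.86). Each of these was picked from 11032 genes by its value, so no test was made.

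For CXCR6 the most similar gene was another chemokine receptor, CCR8, which marks activated and regulatory T cells (r 0.83, rho 0.86). CCR8 measured 6.00 to 22.9 CPM, and its rho with CXCR6 was 0.75 within the high and 1 within the low group. MLXIPL (0.82) followed at a low level, with a median of 0.806 CPM. CCR6 was most like TGFB3 (0.85), BSPRY (0.81) and NUP210 (0.80), and CCR9 most like NDUFA12 (0.78) and IFT22 (0.78). NUP210 was unlike CCR6 in the low group, where CCR6 hardly varied (rho 0.93 in the high group and -0.43 in the low group).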

How the data were processed

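The values deposited by the authors are counts, that is whole numbers of reads per gene name and cow, with no scaling applied. Per the file headers, featureCounts 1.4.6-p3 summed exons of Ensembl release 88 on UMD 3.1, while the submitters' processing notes name STAR 2.7.3, Subread 1.6.5 and ARS-UCD1.2. Positions and exon lengths are those of the count tables. The entry without a gene name, 13.9 to 16.7% of counts, was left out. Groups are those of the sample labels, and the headers point to alignments kept under a goat project with animal numbers unlike those of the tables, which could not be resolved here. The paper calls the breed Italian Simmental.

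CPM used TMM factors. edgeR 4.0.16 (R 4.3.3, robust quasi-likelihood fit, no covariate) was run over 11033 genes passing filterByExpr (minimum count 10, total 15), with Benjamini-Hochberg adjustment. Alternatives were DESeq2 1.42.0, limma-voom (limma 3.58.1), other scalings and filters, covariates, an exact permutation test and each cow left out. On simulated counts of this comparison, 74.5% of 196 genes changed by 1 on the log2 scale were recovered, with 4 false calls (10912 genes run). Of 191 changed by 2, 99.5% were recovered, with 3 false calls (10916 genes run). The genes of a run were changed together, which eases the adjusted threshold, so these shares do not hold for a single changed receptor. Correlations used log2 CPM (prior count 2) and Python 3.11.15 (scipy 1.17.1). A list was scored from 3 tested genes up.

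The text names all 7 receptors, the 4 receptors, 3 ligands and 4 signalling genes most abundant among the other genes of the pathway, those with an unadjusted p under 0.05, and the 3 genes most like each receptor, except for some genes that are not reported here. The 7 receptors and the lists were chosen with earlier results of these data known. All 7 names were found in RefSeq's gene table, and their sequences were not used here.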

Additional observations from a re-analysis of the deposited data

Results flagged for a closer look

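Dixon's test picked out 4 values that stood apart from the other cows of their group, over 84 comparisons of 21 measures. Chance gives about 2.1 such values. CXCR4 was highest in high replicate 2, at a log2 CPM of 8.30 against 7.86 for the next high cow. The plasma cell score of high replicate 7 was 0.781, and the next high cow had -0.0415. The interferon response score of high replicate 5 was 1.21 against -0.256 for the next high cow, and the relation of CCR6 with that score is given above with and without this cow and low replicate 8. The cytotoxic and NK score of low replicate 10 was 0.300 against -0.0626 for the next low cow, and the same cow was the highest for CXCR6.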

How the results depend on the processing

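The 7 receptors gave 0 calls at an adjusted p of 0.05 under every alternative run, the 98 pairs with marker lists gave 0, and 3 or 4 of the 6 neighbour pairs differed in level. DESeq2 called 1 gene of the whole table and the other fits 0. Of the fold changes, CCR6 was -0.0067 with limma-voom, and the haemoglobin covariate turned CXCR5 (-0.049), CCR6 (-0.047) and CCR9 (0.0094). With 1 cow left out, log2 fold changes ranged from -0.13 to 0.21 for CXCR4, -0.070 to 0.28 for CCR2 and -0.041 to 0.090 for CCR6, and the other 4 receptors kept their sign. Of the correlations, group centring gave a rho of 0.038 for CCR6 with B cell markers. Without the 2 farthest cows, rho with the T cell score was 0.23 for CXCR4, 0.16 for CXCR3, 0.073 for CCR6 and -0.064 for CCR9. With 1 cow left out, rho with that score ranged from -0.41 to 0.021 (CXCR4), -0.45 to 0.014 (CXCR3) and -0.27 to 0.042 (CCR6), CCR6 with B cell markers from -0.24 to 0.15, and CCR9 with gamma delta T cell markers from -0.15 to 0.24. The cause of these turns was not tested. The relations of CCR2, CXCR6 and CXCR5 with their markers kept their sign, with rho from 0.70 to 0.84, 0.55 to 0.79 and 0.49 to 0.80. No paired analysis was possible because the high and low cows are different animals and the labels name no pairs. Counting error limited CCR6 most, and 13 cows limit every difference and correlation.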
